A study of Sus scrofa with 12 samples.

Results

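A set of 10 genes of the endothelial glycocalyx and of the pericellular proteoglycans were followed in primary porcine arterial endothelial cells (ECs) kept under low, physiological or supra-high laminar shear stress. The members were given by symbol as CSPG4, VCAN, BGN, SDC1, SDC2, SDC3, SDC4, GPC1, HAS2 and CD44. A row of the deposited count table carried the Ensembl identifier of 9 of these 10 genes, out of 21153 genes in the table. SDC4 had no identifier in the name table used and was not analysed here.

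The 12 cultures came from 3 donors and were exposed for 48 h to 2, 30 or 80 dyne/cm2, and no transgene, drug or gene deletion was used. From each donor there were 4 cultures: the low and the supra-high shear stress were applied to 1 each, and the physiological shear stress to 1 in each of 2 sets. The 4 groups thus held 3 libraries each. The donors were 8-month-old pigs from a slaughterhouse, and the cells grew on gelatin in a medium that contained serum and heparin, which is itself a glycosaminoglycan. The labels call the ECs aortic whereas the methods name coronary arteries. According to the design text, supra-high shear stress and its controls used another model of Ibidi flow slide, at another seeding density, than low shear stress and its controls, so that slide and shear stress cannot be told apart when the responses are set side by side. The methods instead name the same slide model and seeding density for all flow experiments. Set 1 at 30 dyne/cm2 was paired with 2 dyne/cm2 and set 2 with 80 dyne/cm2, by the numbering of the cultures; no label states which slide a set used.

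The luminal surface of ECs carries a glycocalyx, a hydrated layer of membrane proteoglycans, glycoproteins and hyaluronan that is in direct contact with the flowing blood and is known as a sensor of shear stress. Its proteoglycans consist of a core protein and of heparan sulfate or chondroitin sulfate chains, which are built in the Golgi by dedicated enzymes. Syndecans span the membrane, glypicans are held by a lipid anchor, CD44 binds hyaluronan, and versican and biglycan are secreted into the matrix below and around the cell.

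Values are CPM, the reads on a gene relative to all reads on genes of the same library, on one scale for every library. Totals lay between 29606854 and 41058902 counts per library. CPM compares one gene between cultures and not different genes with each other, because transcript lengths were not used. Reads were not stated to be counted by strand. Group values are the mean ± SD of 3 donors. Changes are log2 fold changes within donor, with their standard error (SE), from edgeR's quasi-likelihood test on the counts with a donor term, with Benjamini-Hochberg adjustment of p over all genes tested. A gene passed at an adjusted p under 0.05, and the thresholds of the study also ask for a 2-fold change. The test took genes that reached 1 CPM in 3 or more of the 6 libraries of a comparison, which kept 7 of the 9 matched members and left out GPC1 and HAS2.

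At 2 vs. 30 dyne/cm2, mRNA of the proteoglycan CSPG4 fell to at most 1 read per library, syndecan-1 fell about 3-fold and CD44 fell less, while syndecan-3 rose. Biglycan, versican and syndecan-2 did not pass the test. Of the 7 members tested, 4 passed, 1 upward and 3 downward, where 25.8% of all 11226 tested genes passed. With the 2-fold threshold 2 members passed, CSPG4 and SDC1, against 9.6% of all genes. The median log2 fold change of the 7 members was -0.21, beside 0.00253 over all genes tested. At equal shear stress, for set 2 vs. set 1, their median was -0.25, with 6 of the 7 lower in set 2. Without the donor term CSPG4 and SDC1 passed and CD44 and SDC3 did not.

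CSPG4 (ENSSSCG00000001873, chromosome 7, 57949182 to 57988602 on Sscrofa11.1), also known as NG2, is a membrane-spanning chondroitin sulfate proteoglycan best known from pericytes and immature glia. At 2 dyne/cm2 the libraries of donors 1, 2 and 3 held 1, 1 and 0 reads, or 0.0255, 0.0338 and 0 CPM. In set 1 at 30 dyne/cm2 the same donors had 1.05, 2.21 and 5.57 CPM. Every control library stood above every library at 2 dyne/cm2. Summed over donors there were 305 reads in the controls and 2 at low shear stress, a ratio of 142 after correction for depth (exact Clopper-Pearson 95% interval 39.0 to 1178, which covers counting error only). CSPG4 passed the test with an adjusted p = 0.00573, and its fitted log2 fold change of -6.81 (SE 0.61) depends on the small count that edgeR adds and is no bound. CSPG4 met the filter for this test only through set 1, the group where it was high.

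The syndecans are heparan sulfate proteoglycans whose outer part can be shed by proteases. SDC1 (ENSSSCG00000008601, chromosome 3, 117987585 to 118011886) had 22.1, 16.3 and 12.1 CPM at 2 dyne/cm2 and 70.9, 37.3 and 41.3 CPM in set 1, so the groups did not overlap. Its controls were 3.21, 2.28 and 3.40 times as high as the low shear stress cultures of the same donor. The log2 fold change was -1.53 (SE 0.13, adjusted p = 0.00537), and SDC1 passed without the donor term as well (adjusted p = 0.0331). SDC3 (ENSSSCG00000003592, chromosome 6, 87495041 to 87535689), best known from the nervous system, moved the other way, from 95.3, 86.1 and 92.3 CPM in set 1 to 121, 118 and 134 CPM at 2 dyne/cm2. All donors were higher at low shear stress and the groups did not overlap. The change of SDC3 was small (log2 fold change 0.46, SE 0.09, adjusted p = 0.0233) and did not pass without the donor term (adjusted p = 0.0540) or with any one donor left out (adjusted p = 0.0640 to 0.0708).

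Syndecan-2 is the syndecan usually associated with mesenchymal cells. SDC2 (ENSSSCG00000006088, chromosome 4, 40003618 to 40129483, overlapping the non-coding RNA gene LOC110260253) had 4.29, 1.35 and 22.9 CPM at 2 dyne/cm2 and 1.46, 3.03 and 3.66 CPM in set 1. Donors 1 and 3 were higher and donor 2 was lower at low shear stress, so the groups overlapped. The log2 fold change was 1.2 (SE 0.78, adjusted p = 0.291, 95% interval -0.80 to 3.19), and without donor 2 it was 2.19 and passed (adjusted p = 0.0306).

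CD44 (ENSSSCG00000013297, chromosome 2, 25788699 to 25884209) is the main cell surface receptor for hyaluronan and can itself carry glycosaminoglycan chains. It had 227, 337 and 166 CPM at 2 dyne/cm2 and 355, 484 and 336 CPM in set 1. In each of the 3 donors the culture at low shear stress was lower, although the groups overlapped because the donors differed in level. The log2 fold change was -0.71 (SE 0.11, adjusted p = 0.0159), the adjusted p was 0.128 without the donor term, and against the other set at 30 dyne/cm2 the log2 fold change was -0.24 (adjusted p = 0.133).

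The secreted members did not pass. BGN (ENSSSCG00000012766, chromosome X, 124282048 to 124295450), a small leucine-rich proteoglycan of the matrix, had 1093, 1085 and 1029 CPM at 2 dyne/cm2 and 984, 910 and 748 CPM in set 1. All 3 donors were higher at low shear stress without overlap of the groups, with a log2 fold change of 0.30 (SE 0.12, adjusted p = 0.129, 95% interval -0.01 to 0.62). VCAN (ENSSSCG00000014136, chromosome 2, 91682177 to 91811674), the large hyaluronan-binding chondroitin sulfate proteoglycan of the vessel wall, had 5.82, 5.57 and 5.01 CPM at 2 dyne/cm2 and 5.75, 7.12 and 6.31 CPM in set 1. Its log2 fold change was -0.21 (SE 0.15, adjusted p = 0.348), with a 95% interval of -0.60 to 0.18.

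**Figure D1:**
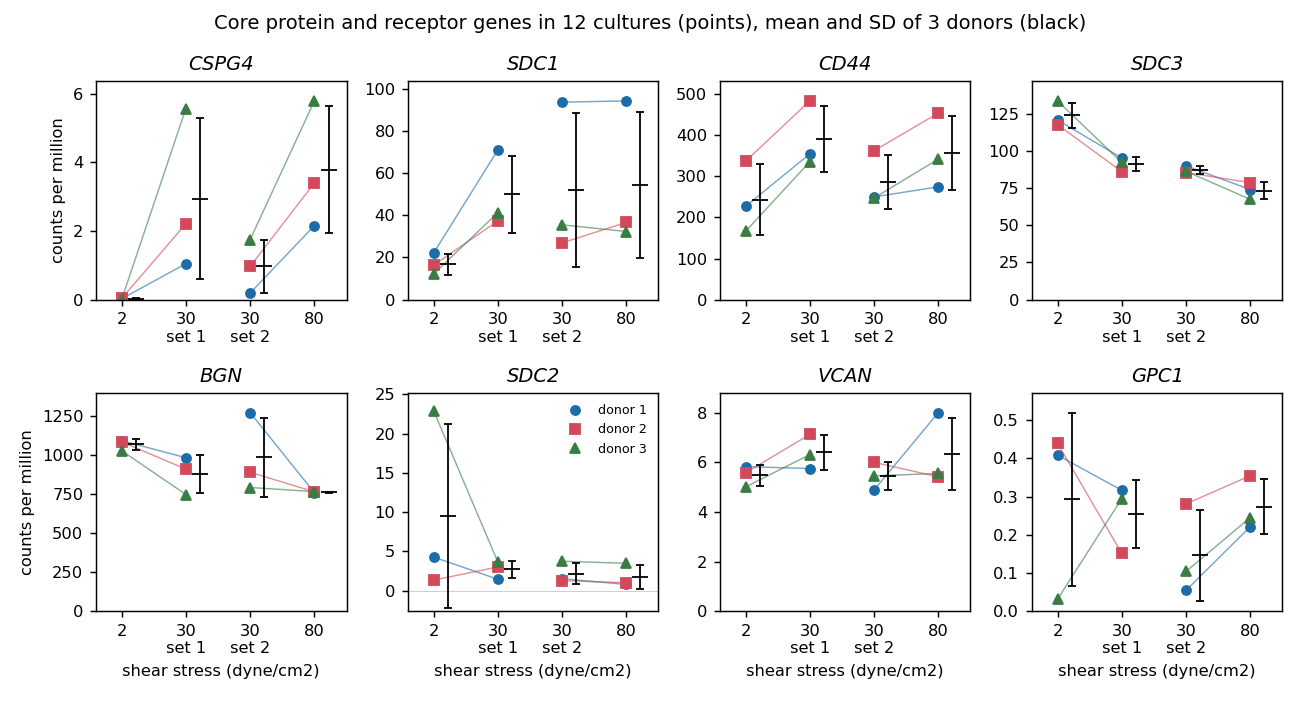
CPM of 8 matched genes in each culture (points, 1 colour and symbol per donor, lines joining the cultures compared within a donor), with the mean and SD of 3 donors in black, against shear stress in dyne/cm2. CSPG4 lies at 0 to 0.0338 CPM in the cultures at 2 dyne/cm2, SDC1 and CD44 lie lower there than in set 1 in every donor, and SDC3 lies highest at 2 and lowest at 80 dyne/cm2.

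At 80 vs. 30 dyne/cm2 CSPG4 was higher in every donor and no other member passed. Of the 7 members tested 1 passed, where 8.4% of all 11187 genes tested passed. CSPG4 also met the 2-fold threshold, which 2.2% of all genes met. The median log2 fold change of the 7 members was 0.13, beside -0.00575 over all genes and -0.25 for the members in set 2 vs. set 1.

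For CSPG4, set 2 at 30 dyne/cm2 had 0.192, 0.968 and 1.75 CPM (7, 31 and 67 reads) and the cultures at 80 dyne/cm2 had 2.16, 3.40 and 5.79 CPM (78, 115 and 189 reads). The groups did not overlap, and the 3 donors were 11.2-fold, 3.51-fold and 3.32-fold higher at supra-high shear stress. The log2 fold change was 2.14 (SE 0.29, adjusted p = 0.00792). This call rested on the choice of control and on the donor term: against set 1 the log2 fold change was 0.55 (adjusted p = 0.403), without the donor term it was 2.01 (adjusted p = 0.578), and without donor 3 it was 2.45 (adjusted p = 0.0607). The cultures at 80 dyne/cm2 thus lay above set 2 but overlapped with set 1, in which donor 3 had 5.57 CPM.

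Among the syndecans, SDC3 had 74.1, 78.7 and 67.5 CPM at 80 dyne/cm2 and 90.0, 85.5 and 86.3 CPM in set 2, lower in every donor without overlap. Its log2 fold change was -0.22 (SE 0.09, adjusted p = 0.195, 95% interval -0.44 to 0.00204). SDC1 had 94.1, 36.6 and 32.3 CPM at 80 dyne/cm2 and 93.6, 26.9 and 35.4 CPM in set 2, a log2 fold change of 0.13 (SE 0.13, adjusted p = 0.565). Here the donors spread much further than the conditions, and the 95% interval of -0.18 to 0.44 does not reach a 2-fold change. SDC2 had 0.803, 1.03 and 3.49 CPM at 80 dyne/cm2 and 1.54, 1.28 and 3.76 CPM in set 2, with a log2 fold change of -0.36 (SE 0.25, adjusted p = 0.395).

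CD44 had 275, 454 and 342 CPM at 80 dyne/cm2 and 249.9, 363 and 247 CPM in set 2. All donors were higher at supra-high shear stress, with a log2 fold change of 0.34 (SE 0.11) that did not pass (adjusted p = 0.110). Without donor 1 it was 0.48 and passed (adjusted p = 0.00255), and against set 1 it had the opposite sign, -0.14 (adjusted p = 0.694).

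BGN was at 760, 765 and 766 CPM at 80 dyne/cm2, the narrowest spread between donors of any group for this gene, and at 1273, 891 and 793 CPM in set 2. The groups did not overlap, with set 2 higher 1.68-fold in donor 1, 1.16-fold in donor 2 and 1.03-fold in donor 3, and the difference did not pass (log2 fold change -0.30, SE 0.17, adjusted p = 0.297). VCAN had 8.0, 5.41 and 5.55 CPM at 80 dyne/cm2 and 4.88, 6.0 and 5.45 CPM in set 2, with a log2 fold change of 0.23 (SE 0.17, adjusted p = 0.428).

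**Figure D2:**
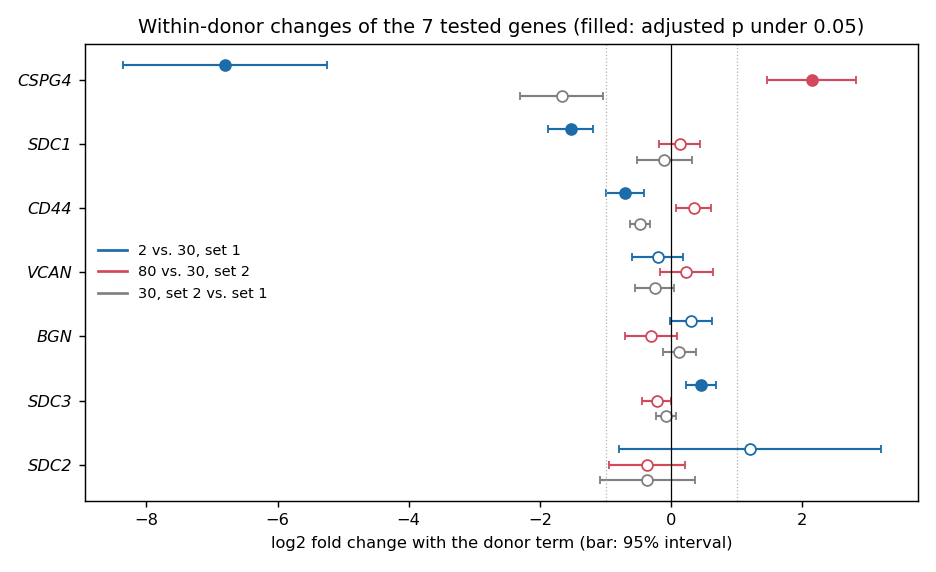
Log2 fold changes with the donor term of the 7 tested members (points) with 95% intervals (bars) for 2 vs. 30 dyne/cm2, 80 vs. 30 dyne/cm2 and set 2 vs. set 1 at 30 dyne/cm2; filled points passed at an adjusted p under 0.05, and dotted lines mark a 2-fold change. CSPG4 is at -6.81, 2.14 and -1.67, while the SDC1 point at 80 dyne/cm2 lies at 0.13 with an interval that crosses 0.

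The pair of cultures that each donor had at 30 dyne/cm2 shows how far a member moved at equal shear stress. None of the 7 members passed for set 2 vs. set 1 in edgeR's quasi-likelihood test, where 0.0179% of 11163 genes passed, and 0.00896% with the 2-fold threshold. At an unadjusted p under 0.05 there were 2146 genes, with CSPG4 and CD44 among them. CSPG4 was lower in set 2 in each donor (log2 fold change -1.67, SE 0.26, adjusted p = 0.0886), and so was CD44 (log2 fold change -0.47, SE 0.06, adjusted p = 0.0741). DESeq2 with the donor term called both genes (adjusted p = 0.00187 for CSPG4 and 1.5e-05 for CD44), as did edgeR without the filter and without donor 2. The sizes of the other members between the sets lay from -0.37 for SDC2 to 0.12 for BGN. The gap between the sets thus stood at -1.67 for CSPG4, beside 2.14 for 80 vs. 30 dyne/cm2, and at -0.47 for CD44, beside 0.34. Slide and culture set cannot be told apart.

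A single model over 12 libraries tested whether the response to 80 dyne/cm2 differed from the response to 2 dyne/cm2. The response differed for 5 of the 7 members, where 37.1% of all 11568 genes differed. CSPG4, SDC1 and CD44 had the higher response at 80 dyne/cm2, by 8.98 (SE 0.69, adjusted p = 5.7e-05), 1.63 (SE 0.30, adjusted p = 0.00268) and 1.05 (SE 0.18, adjusted p = 0.00190) on the log2 scale. The value of CSPG4 rests on the 1, 1 and 0 reads at 2 dyne/cm2 and is no bound. Each difference also contains the gap between the sets at 30 dyne/cm2, with its sign turned. For set 2 vs. set 1 this gap was -1.67 for CSPG4 and -0.47 for CD44, so it raised both differences. SDC3 and BGN had the lower response at 80 dyne/cm2, with differences of -0.68 (SE 0.15, adjusted p = 0.00671) and -0.63 (SE 0.21, adjusted p = 0.0431). BGN thus passed here although neither of its single comparisons did. For VCAN the difference was 0.44 (adjusted p = 0.143, 95% interval -0.05 to 0.93) and for SDC2 it was -1.67 (adjusted p = 0.142, 95% interval -3.53 to 0.19). Without the donor term 2 members passed, CSPG4 (adjusted p = 0.00372) and SDC3 (adjusted p = 0.0142), whereas SDC1 (adjusted p = 0.180), CD44 (adjusted p = 0.0999) and BGN (adjusted p = 0.108) did not. BGN lost its call with any one donor left out, and SDC3 lost it without donor 1 or donor 3.

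How much of a member's variation went with the donor differed widely between the members. On the scale of log2(CPM + 1), condition took 93.9% of the sum of squares of SDC3 over the 12 libraries and the donor 0.381%. Condition here means the 4 groups, so the gap between the sets at 30 dyne/cm2 counts as condition. The shares are thus not those of shear stress alone. CD44 stood at 45.3% for condition and 45.9% for donor, and SDC1 at 55.4% and 37.7%. CSPG4 had 75.1% with condition and 17.5% with donor. For VCAN 63.2% went with neither, and for SDC2 the donor took 45.8% and the condition 29.5%. Donor 1 had the highest SDC1 level and donor 2 the highest CD44 level in all 4 groups, while donor 3 had the highest CSPG4 level in the 3 groups where that gene was above 1 read.

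GPC1 and HAS2 were too low to be tested. GPC1 (ENSSSCG00000016364, chromosome 15, 139457866 to 139483704, overlapping the protein coding gene LOC102160973 and MIR149), a glypican held by a lipid anchor, had 16, 13 and 1 reads at 2 dyne/cm2 and 13, 5 and 10 in set 1. It had 2, 9 and 4 reads in set 2 and 8, 12 and 8 at 80 dyne/cm2. Group means were 0.147 to 0.293 CPM and the groups overlapped. The culture at 80 dyne/cm2 was higher than set 2 in each donor, 4.04-fold, 1.26-fold and 2.35-fold on these few reads, and at 2 dyne/cm2 it was higher than set 1 in donors 1 and 2 and lower in donor 3; neither difference was tested. HAS2 (ENSSSCG00000005992), a hyaluronan synthase of the plasma membrane, had 0 reads in 10 libraries and 1 read in each of the remaining libraries, at 2 dyne/cm2 in donor 3 and at 80 dyne/cm2 in donor 2. A count of 0 allows up to 3 reads, which is 0.0731 to 0.101 CPM in these libraries.

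By root mean square difference over 6 within-donor changes of log2(CPM + 1), scaled by TMM, the genes with changes most like those of SDC1 among 11041 genes compared were SOX13 (0.10), FAM110D (0.17) and GCH1 (0.17). SOX13 is a transcription factor and GCH1 makes the cofactor of nitric oxide synthase. The mean changes of SOX13 were -1.43 at 2 and 0.12 at 80 dyne/cm2, where SDC1 had -1.49 and 0.14. For CSPG4 the nearest were ENSSSCG00000013976 (0.37), ENSSSCG00000015664 (0.37) and S100A5 (0.39), the first pair without a symbol. These are descriptions from the same libraries. CSPG4 has no match as close as that of SDC1, but the distances of these genes cannot be compared directly. CSPG4 had few reads, and with the added 1 its mean change at 2 dyne/cm2 was -1.79.

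The other genes of the pathway were taken from lists of core proteins, enzymes that build, modify or degrade the chains, the hyaluronan system, suppliers of activated sugars and sulfate, proteases, and sialomucins with other surface glycoproteins. Over all genes tested, 25.8% passed at 2 dyne/cm2 and 8.4% at 80 dyne/cm2. The counts of each list and of the cell type markers below stand beside these shares. Between the sets at 30 dyne/cm2 (set 2 vs. set 1) the list medians were -0.37 for chondroitin sulfate enzymes and -0.50 for proteases. Sialomucins had -0.21 and the hyaluronan system -0.17. Suppliers of sugars and sulfate had -0.11, heparan sulfate enzymes -0.07 and core proteins 0.09. From each list, up to 5 genes past both thresholds in either comparison are named, 25 in all. Because these tests chose them, the counts of named genes that passed are a description only. At 2 dyne/cm2, 22 of the 25 passed, 19 of them also against the other control set and 12 without the donor term. Those 12 were ASPN, SRGN, CHPF, CHST3, DSEL, HS3ST1, HS3ST5, HYAL2, ITIH5, ADAMTS1, ADAMTS4 and MMP14. The other 10 had adjusted p between 0.0576 (TIMP3) and 0.448 (GPC4) without the donor term. At 80 dyne/cm2, 12 of the 23 tested passed, of which 12 passed in DESeq2 with the donor term, 1 (HAPLN4) against set 1 and 0 without the donor term (adjusted p = 0.369 to 0.902). In that last fit 0 of all genes passed edgeR's quasi-likelihood test, and 929 had an unadjusted p under 0.05.

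Of 31 matched core protein genes 17 were tested at 2 dyne/cm2, and 5 rose and 1 fell (2 of the 6 passed without the donor term). The list's median was -0.03. The genes that rose were ASPN, SPOCK1, FMOD, GPC4 and CSPG5, whereas LUM and PODN, small leucine-rich proteoglycans like ASPN and FMOD, had log2 fold changes of -0.11 (adjusted p = 0.763) and 0.098 (adjusted p = 0.533), and SPOCK3, a relative of SPOCK1, had -0.75 (adjusted p = 0.183). ASPN (asporin) had 3.24 ± 1.84 CPM at 2 dyne/cm2 and 0.171 ± 0.0781 CPM in set 1 (log2 fold change 4.18, adjusted p = 0.00690). It had at most 0.244 CPM in set 1 and met the filter only through 2 dyne/cm2, the group where it was high. SPOCK1 (testican-1) rose by 3.76 on the log2 scale (adjusted p = 0.0152), but between donors its level ran from 3.07 to 93.4 CPM at 2 dyne/cm2. FMOD (fibromodulin) went from 1.94 ± 1.15 to 4.74 ± 1.45 CPM (log2 fold change 1.39, adjusted p = 0.0203), and GPC4, another glypican, rose by 2.25 (adjusted p = 0.0202) with 1 to 4 reads per library in 1 donor. SRGN (serglycin), the proteoglycan of secretory granules, was the one that fell, from 4.80 ± 2.80 to 1.05 ± 0.144 CPM (log2 fold change -2.05, adjusted p = 0.0151). CSPG5, outside the rule for naming, also rose (log2 fold change 1.16, adjusted p = 0.0119). At 80 dyne/cm2, 16 were tested, with a median of -0.18; ESM1 (endocan) rose and SPOCK3 fell.

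Several markers of fibroblasts also changed. The summed level of 9 fibroblast markers was 494 to 2323 CPM at 2 dyne/cm2, 207 to 884 CPM in set 1, 184 to 1407 CPM in set 2 and 63.6 to 337 CPM at 80 dyne/cm2, most of it from COL3A1 and FBLN1, which ECs can also express. Of these markers 4 of the 6 tested rose at 2 dyne/cm2 (COL1A2, COL3A1, FBLN1 and PDGFRA) and 2 of the 5 tested fell at 80 dyne/cm2 (COL3A1 and FBLN1). COL1A2 had mean CPM of 97.5 at 2 dyne/cm2, 45.8 in set 1 and 111 in set 2. Its log2 fold change for set 2 vs. set 1 was 1.11 (adjusted p = 0.0830 in edgeR). COL3A1, FBLN1 and PDGFRA had higher means at 2 dyne/cm2 than in either set at 30 dyne/cm2. Without the donor term 1 of these 4 (COL3A1) and 0 of these 2 passed, with adjusted p at 2 dyne/cm2 of 0.640 for COL1A2, 0.462 for FBLN1 and 0.0949 for PDGFRA, and at 80 dyne/cm2 of 0.504 for COL3A1 and 0.749 for FBLN1. DPT was at 0 in every library and TCF21 had at most 11 reads, and 2 of the markers, DCN and LUM, are core proteins themselves. Their part in the result was not tested. In bulk RNA fewer cells of a type and less RNA per cell cannot be told apart. The 12 smooth muscle and pericyte markers, the cells in which CSPG4 is best known, summed to 3.37 to 10.8 CPM over all libraries. Their sum was 4.69 to 10.8 CPM at 2 dyne/cm2, where CSPG4 had 0 or 1 read, and 3.45 to 4.72 CPM in set 1. DES, ACTG2, RGS5, KCNJ8 and ABCC9 had at most 3 reads in any library. Of the 2 tested, PDGFRB rose at 2 dyne/cm2, from 0.791 ± 0.520 to 4.22 ± 2.86 CPM (log2 fold change 2.41, adjusted p = 0.00758, and 0.116 without the donor term). The other, LMOD1, had 0.966 ± 0.257 CPM at 2 dyne/cm2 and 1.92 ± 0.824 CPM in set 1 (log2 fold change -0.94, adjusted p = 0.0535), and at 80 dyne/cm2 its log2 fold change was 0.51 (adjusted p = 0.253). For LMOD1 the difference between the responses had the same sign as for CSPG4 and passed (1.44, adjusted p = 0.0178, and 0.210 without the donor term), and for PDGFRB it had the opposite sign (-2.96, adjusted p = 0.000774, and 0.131 without the donor term). The part of these cells in the CSPG4 result was not tested.

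The 9 matched endothelial markers, out of 12 listed, summed to 4747 to 5923 CPM at 2 dyne/cm2, 7420 to 8193 CPM in set 1, 6923 to 7775 CPM in set 2 and 8440 to 9002 CPM at 80 dyne/cm2, so their sum was high in all libraries and lower at 2 dyne/cm2. There TEK, FLT1, PECAM1 and ESAM fell and ROBO4 rose, and at 80 dyne/cm2 KDR rose. PECAM1 went from 3209 ± 235 CPM in set 1 to 1964 ± 386 CPM at 2 dyne/cm2. At 2 dyne/cm2 CDH5 (log2 fold change -0.11, adjusted p = 0.521) and ERG (-0.22, adjusted p = 0.134) did not pass. Neither did TIE1 (-0.18, adjusted p = 0.255) and KDR (-1.27, adjusted p = 0.0609). Without the donor term ROBO4 (adjusted p = 0.106) and KDR (adjusted p = 0.845) did not pass. The part of these shifts in the members' results was not tested. Leukocyte markers summed to 538 to 708 CPM, nearly all LAPTM5, with PTPRC, CD3E and TYROBP at 3 reads or fewer per library, and 0 of the 3 tested passed in edgeR in either comparison, with 0 at an unadjusted p under 0.05.

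Chondroitin sulfate, the chain carried by CSPG4 and VCAN, had lower levels of several of its enzymes at low shear stress. Of 14 tested enzymes for chondroitin and dermatan sulfate, 4 fell and 2 rose at 2 dyne/cm2, 3 of these 6 without the donor term, with a median of -0.36. At equal shear stress, for set 2 vs. set 1, 11 of the 13 tested were lower in set 2, with a median of -0.37. There 0 passed in edgeR, and 6 of the 13 had an unadjusted p under 0.05. CHST3 and CHST11 place sulfate on different carbons of the chain. CHST3 had 34.1 ± 6.55 CPM at 2 dyne/cm2 and 126 ± 17.2 CPM in set 1 (log2 fold change -1.88, adjusted p = 0.00331), and CHST11 had 2.09 ± 1.5 and 9.73 ± 5.51 CPM (log2 fold change -2.33, adjusted p = 0.00945). CHSY1, which polymerizes the chain, fell by 1.06 (adjusted p = 0.00924), and DSEL, an epimerase of dermatan sulfate, fell by 1.04 (adjusted p = 0.00769). The polymerizing factor CHPF was higher at low shear stress, with 2.32 ± 0.157 CPM against 0.585 ± 0.232 CPM (log2 fold change 2.03, adjusted p = 0.0159). CHPF had at most 0.818 CPM in set 1 and met the filter only through the group where it was high. At 80 dyne/cm2 0 of 13 tested enzymes passed in edgeR, 2 had an unadjusted p under 0.05, 0 passed in DESeq2, and 2, CHST3 and CHST11, passed without donor 1 (adjusted p = 0.00210 and 0.00627).

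Enzymes that modify heparan sulfate, the chain of the syndecans and GPC1, moved in both directions. Of 20 tested genes for heparan sulfate and the linker shared by both chains, 2 rose and 4 fell at 2 dyne/cm2, with a median of -0.04 (3 of the 6 without the donor term), and 2 rose and 2 fell at 80 dyne/cm2, with a median of 0.02. HS3ST1, a 3-O-sulfotransferase known for making the antithrombin binding site, had 0.631 ± 0.112 CPM at 2 dyne/cm2 against 10.8 ± 9.28 CPM in set 1 (log2 fold change -3.80, adjusted p = 0.00758). HS3ST1 had at most 0.724 CPM at 2 dyne/cm2 and met the filter for this comparison only through set 1, where it was high. At 80 dyne/cm2 it had 15.8 ± 7.34 CPM against 7.01 ± 6.63 CPM in set 2 (log2 fold change 1.45, adjusted p = 0.0192). Its relative HS3ST5 moved oppositely at 2 dyne/cm2, from 8.46 ± 2.27 to 35.1 ± 11.2 CPM (log2 fold change 2.04, adjusted p = 0.00663). XYLT1, which puts the first sugar of the linker on the core protein, fell by 1.34 at 2 dyne/cm2 (adjusted p = 0.0122) and rose by 0.60 at 80 dyne/cm2 (adjusted p = 0.0321). That rise did not pass without donor 2 (adjusted p = 0.0765) or donor 3 (adjusted p = 0.242), and against set 1 the log2 fold change was -0.52 (adjusted p = 0.330). The fall of XYLT1 at 2 dyne/cm2 did not pass against set 2 (log2 fold change -0.27, adjusted p = 0.588), nor did the rise of HS3ST1 at 80 dyne/cm2 against set 1 (0.77, adjusted p = 0.476). SULF1, an extracellular sulfatase that trims heparan sulfate, had 2.19 ± 2.75 CPM at 80 dyne/cm2 and 8.98 ± 12.7 CPM in set 2 (log2 fold change -1.82, adjusted p = 0.00806), and at 2 dyne/cm2 its log2 fold change was 1.03 (adjusted p = 0.165), or 1.82 without donor 1 (adjusted p = 0.0208). Against set 1 the SULF1 change at 80 dyne/cm2 was -0.78 and did not pass (adjusted p = 0.297).

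The hyaluronan system, to which CD44 and HAS2 belong, had changed genes in both comparisons. At 2 dyne/cm2 2 of 11 tested genes rose and 3 fell, with a median of -0.08 (2 of the 5 without the donor term), and at 80 dyne/cm2 2 of 10 rose and 4 fell, with a median of -0.40. HYAL2, a hyaluronidase of the cell surface, had 104 ± 13.1 CPM at 2 dyne/cm2, 597 ± 67.1 CPM in set 1, 493 ± 82.2 CPM in set 2 and 798 ± 88.8 CPM at 80 dyne/cm2. Its log2 fold changes were -2.51 (adjusted p = 0.00331) and 0.73 (adjusted p = 0.0305). CEMIP, which takes part in the breakdown of hyaluronan, rose at 80 dyne/cm2 (log2 fold change 2.07, adjusted p = 0.00152), to 95.6 ± 45.4 from 25.4 ± 17.4 CPM, whereas its change at 2 dyne/cm2 did not pass (log2 fold change -1.96, adjusted p = 0.0916) except without donor 3 (-1.08, adjusted p = 0.0134). ITIH5, whose family of heavy chains binds hyaluronan covalently, had 148 ± 82.4 CPM at 2 dyne/cm2 and 16.5 ± 12.6 CPM in set 1 (log2 fold change 3.20, adjusted p = 0.0166), and it fell at 80 dyne/cm2 by 1.62 (adjusted p = 0.00770). HAPLN4, a link protein that joins hyaluronan to chondroitin sulfate proteoglycans, rose by 0.65 (adjusted p = 0.0200) and then fell by 1.02 at 80 dyne/cm2 (adjusted p = 0.00357). The hyaluronan receptor LAYN fell by 1.30 at 2 dyne/cm2 (adjusted p = 0.0328). Calls were lost for LAYN without donor 3 (adjusted p = 0.0556), for HAPLN4 at 2 dyne/cm2 without donor 2 (adjusted p = 0.0557), and for HYAL2 at 80 dyne/cm2 without donor 2 (adjusted p = 0.0771) or donor 3 (adjusted p = 0.193). Against set 1 the changes at 80 dyne/cm2 were 0.43 for HYAL2 (adjusted p = 0.291), 0.995 for CEMIP (adjusted p = 0.0815) and -0.90 for ITIH5 (adjusted p = 0.466), none of which passed.

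Proteases that cleave core proteins, with their inhibitor TIMP3, had the largest median change of the 7 pathway lists in both comparisons. Of 8 tested genes 6 fell at 2 dyne/cm2, with a median of -1.04 (5 of the 6 without the donor term and 3 without donor 1), and 4 rose at 80 dyne/cm2, with a median of 0.59. ADAMTS1 and ADAMTS4 cleave versican. ADAMTS1 had 2.40 ± 0.732 CPM at 2 dyne/cm2 and 133 ± 48.4 CPM in set 1 (log2 fold change -5.75, adjusted p = 0.00290), and ADAMTS4 had 69.1 ± 39.5 and 568 ± 176 CPM (log2 fold change -3.18, adjusted p = 0.00781). At 80 dyne/cm2 ADAMTS1 rose by 2.81 (adjusted p = 0.00618), ADAMTS4 by 1.4 (adjusted p = 0.00646) and ADAMTS5 by 1.32 (adjusted p = 0.0373). The membrane-type protease MMP14, which can cut CD44 and SDC1, fell by 1.70 at 2 dyne/cm2 (adjusted p = 0.00613) and rose by 0.81 at 80 dyne/cm2 (adjusted p = 0.0186). TIMP3 fell by 1.52 at 2 dyne/cm2 (adjusted p = 0.0330), a call lost without donor 1 (adjusted p = 0.0650), without donor 3 (adjusted p = 0.101) and against set 2 (-1.06, adjusted p = 0.0658). For 80 vs. 30 dyne/cm2 MMP14 did not pass without donor 3 (adjusted p = 0.140), nor ADAMTS5 without donor 2 (adjusted p = 0.143) or donor 3 (adjusted p = 0.274). For ADAMTS4 the sign at 80 dyne/cm2 depended on the control: set 1 had 568 ± 176 CPM and set 2 had 210 ± 115 CPM, and against set 1 its log2 fold change was -0.17 (adjusted p = 0.833). The other proteases that rose at 80 dyne/cm2 did not pass against set 1 either, with log2 fold changes of 0.22 for ADAMTS1 (adjusted p = 0.902), 0.061 for ADAMTS5 (adjusted p = 0.986) and 0.25 for MMP14 (adjusted p = 0.567). All 8 tested genes of this list had lower values in set 2 than in set 1, with a median log2 fold change of -0.50.

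Of the list of endothelial sialomucins and other glycoproteins of the EC surface (CD34, EMCN, CD164, MCAM and ENG), 2 of 5 tested genes fell at 2 dyne/cm2 and 2 rose at 80 dyne/cm2, with medians of -0.50 and 0.14. EMCN (endomucin), a mucin-like glycoprotein of the EC surface, had 22.4 ± 13.5 CPM at 2 dyne/cm2 and 69.8 ± 70.5 CPM in set 1 (log2 fold change -1.25, adjusted p = 0.0341), and 153 ± 78.4 CPM at 80 dyne/cm2 against 37.8 ± 37.0 CPM in set 2 (log2 fold change 2.33, adjusted p = 0.0112). Neither call of EMCN held against the other set at 30 dyne/cm2, with log2 fold changes of -0.53 (adjusted p = 0.244) and 1.55 (adjusted p = 0.330). Of 12 tested genes that supply activated sugars and sulfate, 1 rose and 2 fell at 2 dyne/cm2 and 1 rose at 80 dyne/cm2, each by less than 2-fold, with medians of -0.11 and 0.11. The genes counted above that the rule did not name, chosen here after their values were seen, were at 2 dyne/cm2 HS6ST1, CHPF2 and SLC26A1, which rose, and EXT1, EXTL3, STAB1, ADAM10, ADAM17, CD164, PAPSS1 and UAP1, which fell. The corresponding genes at 80 dyne/cm2 were UXS1 and MCAM, which rose like ESM1, and SULF2, CEMIP2 and STAB1, which fell like SPOCK3. Mean CPM at 80 dyne/cm2 and in set 1 was 92.3 and 91.4 for UXS1, 149 and 116 for MCAM, and 1164 and 979 for ESM1. It was 194 and 263 for SULF2, 27.5 and 44.6 for CEMIP2, 115 and 155 for STAB1, and 0.636 and 1.66 for SPOCK3. For these genes no test against set 1 is given here.

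**Figure D3:**
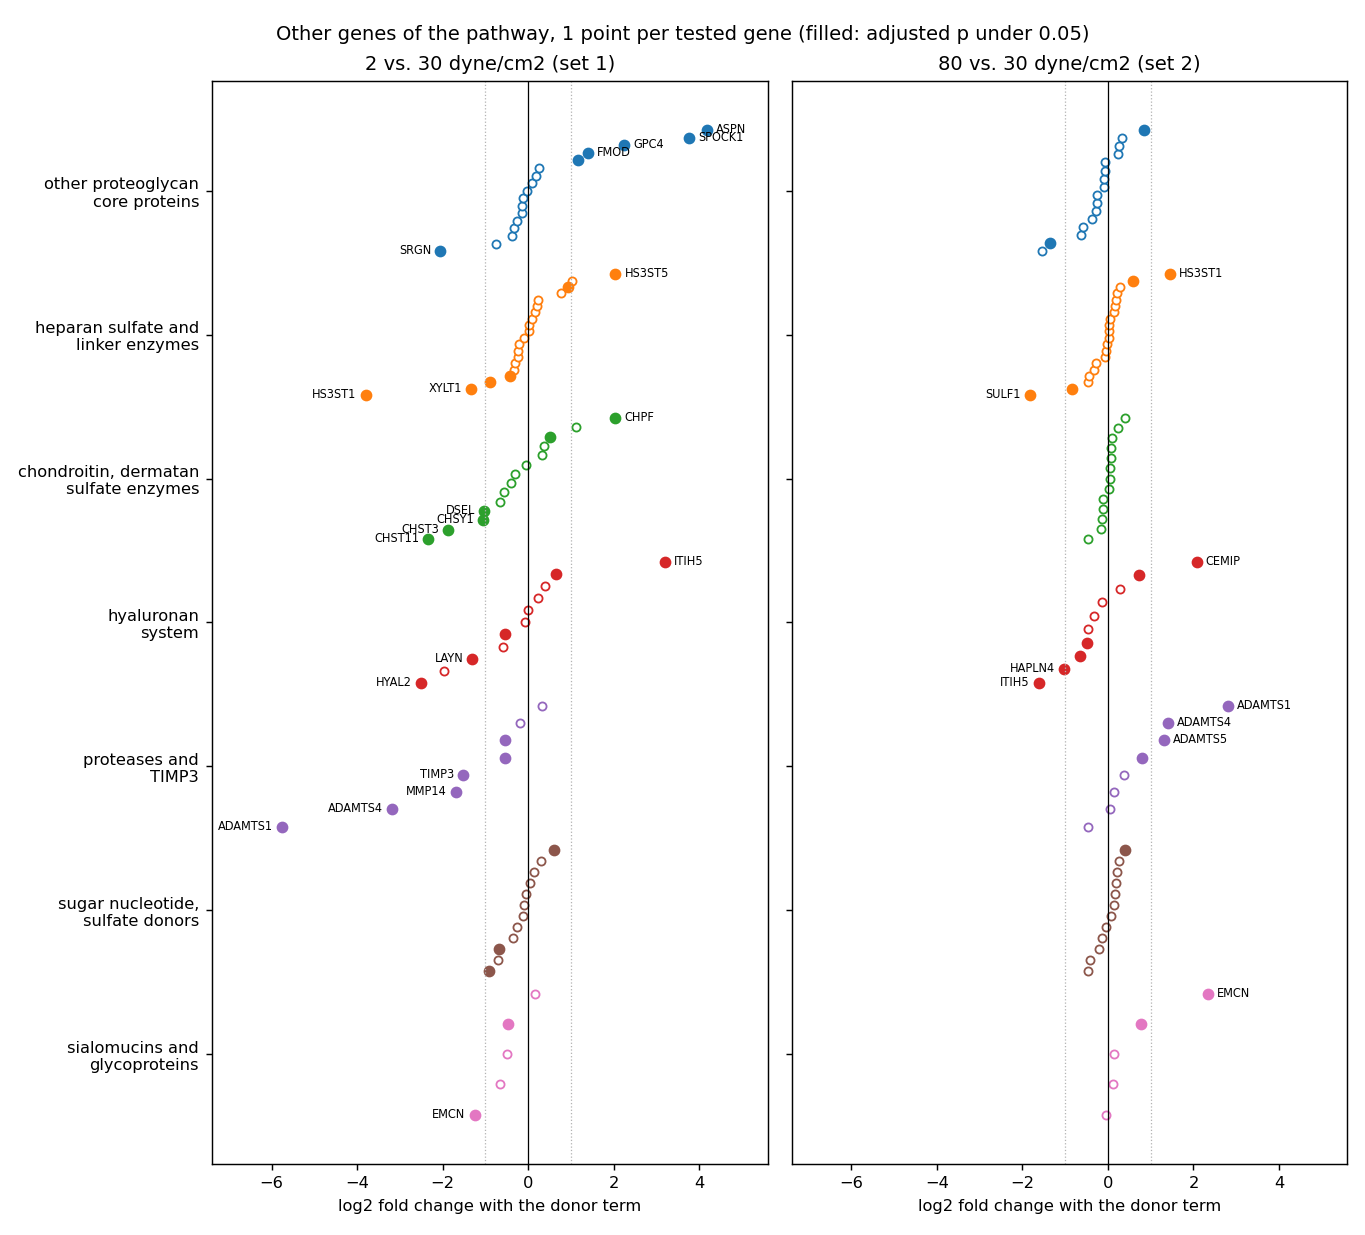
Log2 fold changes with the donor term of the tested genes in 7 lists of the pathway, 1 point per gene, at 2 vs. 30 dyne/cm2 (left) and 80 vs. 30 dyne/cm2 (right); filled points passed at an adjusted p under 0.05, dotted lines mark a 2-fold change, and the named genes past both thresholds are labelled. Within the proteases, ADAMTS1 is the leftmost point of the left panel at -5.75 and the highest of the right panel at 2.81.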

How the data were processed

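RNA of 12 EC cultures (TruSeq, single-end reads of 100 nt) was sequenced. Per the labels the authors used STAR 2.4 for mapping to Sscrofa11.1, without reads that mapped to several places, and featureCounts 1.4.6 for counting. The deposited table holds raw counts per gene, not normalized. Symbols were matched for 14572 of 21153 genes (68.9%), and positions are from RefSeq on Sscrofa11.1. Tests used edgeR 4.0.16 in R 4.3.3 (TMM, quasi-likelihood test, donor term), with 6 libraries per comparison, or 12 for the difference between responses. The standard error is the log2 fold change divided by the square root of F. CPM uses total counts. DESeq2 1.42.0 was an alternative, beside other normalization, filters, control set, samples and donor term.

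The members, lists and tests were chosen with earlier results of these data known. The rule names all members, up to 5 genes per pathway list past both thresholds, and the 3 genes most like each member past both. The labels tie replicate numbers to donors: after removal of group means, the correlation over 11568 genes was 0.61 to 0.86 in 18 same-number pairs and -0.55 to -0.17 in 36 other pairs.

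The edgeR procedure was tested on simulated data with 200 changed genes. Their changes were of the same size in every donor, and in the data 2895 genes passed at 2 vs. 30 dyne/cm2. The shares found and the false calls thus need not hold for the data. At 2 vs. 30 dyne/cm2, over 11219 genes, 79.6% of genes changed by 1 and 100.0% of those changed by 2 on the log2 scale were found, with 23 false calls among 196, more than the 5% aimed for. At 80 vs. 30 dyne/cm2, over 11168 genes, the shares were 96.0% and 100.0%, with 17 false calls among 211, also more than 5%. For the difference between responses, over 11567 genes, they were 55.6% and 88.0%, with 7 false calls among 150.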

Additional observations from a re-analysis of the deposited data

Results flagged for a closer look

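The response to 80 dyne/cm2 differed from the response to 2 dyne/cm2, each against its own set at 30 dyne/cm2, by a test of the difference itself in edgeR with the donor term. Positive log2 values mean a higher response at 80 dyne/cm2. Among the members this held for CSPG4 (8.98, which is no bound), SDC1 (1.63), CD44 (1.05), SDC3 (-0.68) and BGN (-0.63), as given above. In the genes that build, modify or degrade chains, the differences were 2.75 for CHST11, 2.14 for CHST3, 1.12 for CHSY1, 1.11 for DSEL, -1.58 for CHPF, 5.34 for HS3ST1, -2.56 for HS3ST5, -2.98 for SULF1 and 1.90 for XYLT1. In the hyaluronan system they were 3.23 for HYAL2, 3.57 for CEMIP, 1.19 for LAYN, -4.75 for ITIH5 and -1.68 for HAPLN4. Core proteins gave -4.81 for ASPN, -5.43 for SPOCK1, -2.55 for GPC4, -1.46 for FMOD and 1.48 for SRGN. Proteases and their inhibitor gave 8.73 for ADAMTS1, 4.53 for ADAMTS4, 2.51 for MMP14 and 1.88 for TIMP3, and the sialomucin EMCN gave 3.84. Of the 25 named genes that are no members, 24 passed, where 37.1% of all genes did, with adjusted p from 2.7e-05 for HYAL2 to 0.0476 for CHPF, and 11 passed without the donor term. These genes were chosen for passing one of the comparisons that make up the difference, in the same libraries, so their count is a description only. ASPN and CHPF also met the filter of this test only through the group at 2 dyne/cm2, where they were high. By the design text the slide model differs between the comparisons and cannot be told apart from the shear stress, whereas the methods name the same model throughout.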

How the results depend on the processing

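With 3 donors and 5.03 to 9.48 residual degrees of freedom, small changes may pass undetected, and members under 1 CPM were at the limit of the depth. The number of members past the test at 2 dyne/cm2 was 4, 3 to 4 with 1 donor left out, and 2 without the donor term (no replicate block), against the other control set, or with the 2-fold threshold; over all genes 2895 passed, 1244 without the replicate block, 4505 with 12 libraries in 1 fit, 1078 with the 2-fold threshold and 1510 to 2008 with 1 donor left out. At 80 dyne/cm2, 1 member passed, 0 without the replicate block or against the other set, and 0 to 2 with 1 donor left out; over all genes 940 passed, 0 without the replicate block, 26 against the other set, 364 with 12 libraries in 1 fit, 246 with the 2-fold threshold and 184 to 2080 with 1 donor left out (2080 without donor 1, 371 without donor 2, 184 without donor 3). Between the sets at 30 dyne/cm2, 0 members passed, 2 in DESeq2, 2 with no filter and 0 to 2 with 1 donor left out. The response differed for 5 members, 2 without the replicate block, 3 with the 2-fold threshold and 3 to 5 with 1 donor left out. Signs turned for members that had not passed. Against the other set VCAN had 0.040 at 2 dyne/cm2 and -0.024 at 80 dyne/cm2, and CD44 -0.14 at 80 dyne/cm2. With 1 donor left out, SDC1 at 80 dyne/cm2 had -0.075 (without donor 2) to 0.24. Between the sets SDC1 had 0.053 without the replicate block and, with 1 donor left out, -0.37 to 0.073 (without donor 2), BGN -0.00458 (without donor 1) to 0.20 and SDC2 -0.59 to 0.024 (without donor 2). Among the other named genes at 80 dyne/cm2, the other set gave CHST11 -0.13, CHST3 -0.21, CHSY1 -0.62, DSEL -0.10, XYLT1 -0.52, GPC4 0.13, SRGN 0.027, ADAMTS4 -0.17 and TIMP3 -0.090, of which XYLT1 and ADAMTS4 had passed; with 1 donor left out CHSY1 had -0.062 (without donor 2) to 0.16 and FMOD -0.16 to 0.044 (without donor 1). At 2 dyne/cm2 ADAMTS5 had 1.17 against the other set (adjusted p = 0.0467) and -0.55 to 0.39 (without donor 1) with 1 donor left out. The causes were not tested. Of the 22 other named genes past the test at 2 dyne/cm2, 12 to 22 stayed past it over the settings, and of 12 at 80 dyne/cm2, 0 to 12. Relative log expression normalization and filterByExpr changed no call of a member in any comparison.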
